A study of Mus musculus with 19 samples.

Results

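The miRNAs described here are both arms of miR-127, miR-136, miR-431, miR-433 and miR-434, 5 hairpins transcribed antisense to the gene Rtl1. The rows were picked by name, as every row beginning with 1 of these 5 miRNA names. This gave 10 of the 1148 mature miRNAs listed in each library. The 5 names themselves were chosen with earlier results of these data known. All 10 passed the filter on low counts, and the lowest count of any of them in a library was 109. The 19 small RNA libraries came from hippocampal CA1 of wild-type C57B/6JRj mice. In 8 young vehicle libraries the animals were 3 months old and had received 18 g/L cyclodextrin in water. In 5 aged vehicle libraries the animals were 20 months old with the same cyclodextrin water, and in 6 aged SAHA libraries they were 20 months old with 18 g/L cyclodextrin plus 0.67 g/L SAHA. Oral treatment of the aged animals lasted 4 weeks, and the labels give no duration for the young animals. All 3 groups thus shared the cyclodextrin vehicle, and no young group received SAHA. The drug, also called vorinostat, blocks histone deacetylases, enzymes that take acetyl groups off histones and other proteins.

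Rtl1 is a gene derived from a retrotransposon and lies in the imprinted Dlk1-Dio3 region, where Dlk1, Rtl1 and Dio3 are expressed from the paternal chromosome and a long series of noncoding RNAs from the maternal one. The antisense transcript across Rtl1 is maternal and is cut by Drosha and then Dicer into hairpins and short duplexes, from which an Argonaute protein keeps mostly 1 strand, the 5p or the 3p arm. Bases 2 to 8 of that strand, the seed, pair with target messages. These particular miRNAs also match the Rtl1 message along their whole length, so that they can direct its cleavage, and several of them are abundant in brain. Beyond Rtl1, miR-127 has been studied as a regulator of the transcriptional repressor BCL6, miR-431 in the regrowth of sensory axons, and miR-433 as a regulator of the growth factor FGF20.

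The 10 mature sequences, from RefSeq on GRCm38.p6, are shown because no 2 of them share a seed, so that each arm has its own set of seed matches. They are written 5′ to 3′ in order along the plus strand of chromosome 12, with the seed (bases 2 to 8) in capitals.
miR-431-5p: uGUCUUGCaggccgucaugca
miR-431-3p: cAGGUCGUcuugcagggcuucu
miR-433-5p: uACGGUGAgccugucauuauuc
miR-433-3p: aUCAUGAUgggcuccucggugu
miR-127-5p: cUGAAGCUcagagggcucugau
miR-127-3p: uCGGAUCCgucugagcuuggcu
miR-434-5p: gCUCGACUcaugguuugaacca
miR-434-3p: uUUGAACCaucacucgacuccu
miR-136-5p: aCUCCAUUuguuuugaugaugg
miR-136-3p: aUCAUCGUcucaaaugagucuu

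Of these, 9 were 22 bases long, and miR-431-5p had 21. The 10 seeds were all distinct, and none of the other names with an entry among the 891 names found in RefSeq carried any of the 10. Every member therefore stood alone in its seed family within the names that could be matched. The first base, which can bear on which strand an Argonaute protein loads, was U in miR-431-5p, miR-433-5p, miR-127-3p and miR-434-3p and A in miR-433-3p and in both arms of miR-136. The remaining first bases were C in miR-431-3p and miR-127-5p and G in miR-434-5p.

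The 5 hairpins lay within 4942 bases of the plus strand, at chr12:109590447-109590537 (Mir431), chr12:109591715-109591838 (Mir433), chr12:109592846-109592915 (Mir127), chr12:109594506-109594599 (Mir434) and chr12:109595327-109595388 (Mir136). The gaps between neighbours were 1177, 1007, 1590 and 727 bases. All 5 were inside the coding part of the last Rtl1 exon, chr12:109589193-109595488, which is read from the minus strand (GENCODE M21). Each of the 10 mature sequences had exactly 1 perfect complement in the Rtl1 message, and all 10 of these sites were coding. The hairpins in which the balance of the arms is described below are shown 5′ to 3′ from RefSeq, with both mature arms in capitals.
Mir433: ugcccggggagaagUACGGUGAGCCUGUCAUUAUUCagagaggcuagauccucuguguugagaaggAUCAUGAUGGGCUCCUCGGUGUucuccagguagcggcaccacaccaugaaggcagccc
Mir127: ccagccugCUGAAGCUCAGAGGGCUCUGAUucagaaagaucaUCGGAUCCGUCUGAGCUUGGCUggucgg
Mir434: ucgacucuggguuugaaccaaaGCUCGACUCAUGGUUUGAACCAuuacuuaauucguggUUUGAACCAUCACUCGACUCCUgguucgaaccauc
Mir136: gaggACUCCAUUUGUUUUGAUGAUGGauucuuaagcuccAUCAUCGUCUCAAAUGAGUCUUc

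The perfect sites that 3 of the 3p arms have in the Rtl1 message are shown on the Rtl1 strand, 5′ to 3′, with the complement of the seed in capitals.
Rtl1 site of miR-127-3p: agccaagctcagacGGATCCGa
Rtl1 site of miR-433-3p: acaccgaggagcccATCATGAt
Rtl1 site of miR-136-3p: aagactcatttgagACGATGAt

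The arms of a hairpin differed enough in sequence to be told apart by a full-length read. The longest run of bases that both arms shared was 10 in miR-431 and 9 in miR-434, where the last 9 bases of the 5p arm are also the first 9 of the 3p arm. It was 5 in miR-127 and miR-433 and 4 in miR-136. Opposite strands matter here too, because miR-3071 is annotated on the other strand of Mir136 and no source used here gives the strand setting of the counting. Both arms of miR-3071 had 0 counts in all 19 libraries, which allows up to 3 counts or 0.441 to 0.837 CPM, depending on the library's total. No such partner was counted for miR-136 at this depth.

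The libraries held 3585489 to 6808281 counts assigned to miRNAs. Reads carried no molecular identifiers, so counting limits cover counting error only, and the labels number the libraries of a group without saying that each came from its own animal, so the p-values below measure the spread between libraries. The labels give neither sex nor a sequencing batch. Among the markers of cell types, the 5 neuronal miRNAs (miR-124-3p, miR-9-5p, miR-128-3p, miR-138-5p, miR-218-5p) were all present, and 3 markers of liver and muscle summed to 1.93 CPM or less in every library. In bulk tissue, fewer cells of a type and less of an RNA per cell cannot be told apart.

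The 10 members made up a large part of the miRNA reads of CA1. In young vehicle libraries their share was 18.4% ± 1.42 (SD, n = 8), with aged vehicle 18.4% ± 1.83 (n = 5) and with aged SAHA 15.9% ± 1.06 (n = 6). Without miR-127-3p the other 9 summed to 3.77% ± 0.359, 3.94% ± 0.433 and 3.83% ± 0.598 in the same order. For comparison, the 103 other listed miRNAs of the Dlk1-Dio3 region together held 5.05% ± 0.337, 4.93% ± 0.383 and 4.97% ± 0.524. These 5 hairpins thus outweighed the rest of the listed region in reads. The lower mean with SAHA lay in miR-127-3p, which alone held 14.7% ± 1.07, 14.4% ± 1.40 and 12.1% ± 0.713 of the reads.

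Levels are given as CPM, counts scaled by TMM to a common library size, and compare reads per miRNA name of nearly equal length. Ligation of adapters differs between small RNAs, so an order of CPM is an order of reads. miR-127-3p was the most abundant of the 509 miRNAs tested, with a mean over the 19 libraries of 137926 CPM (range 110073 to 162073). miR-434-3p followed at 25984 CPM (19038 to 31159), the 11th of the 509. miR-136-3p had 6252 CPM (5307 to 8001). These 3 were separated by factors of 5.31 and 4.16, and their ranges over libraries did not meet.

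The 5p arms of the same hairpins came next, miR-434-5p at 2499 CPM (2116 to 2985) and miR-136-5p at 1932 CPM (1685 to 2288). Their ranges overlapped, although miR-434-5p was the higher in all 19 libraries. miR-433-3p had 654.8 CPM (490.4 to 853.0) and miR-127-5p 535.3 CPM (454.0 to 688.8), again with overlapping ranges and with miR-433-3p higher in 18 of the 19 libraries. The scarcest were miR-431-3p at 231.1 CPM (181.8 to 301.3), miR-431-5p at 123 CPM (94.0 to 152.5) and miR-433-5p at 38.4 CPM (27.8 to 49.2). miR-433-5p still ranked 269th of the 509. The whole order from miR-127-3p to miR-433-5p held in 19 of 19 libraries at every step except that between miR-433-3p and miR-127-5p.

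**Figure D1:**
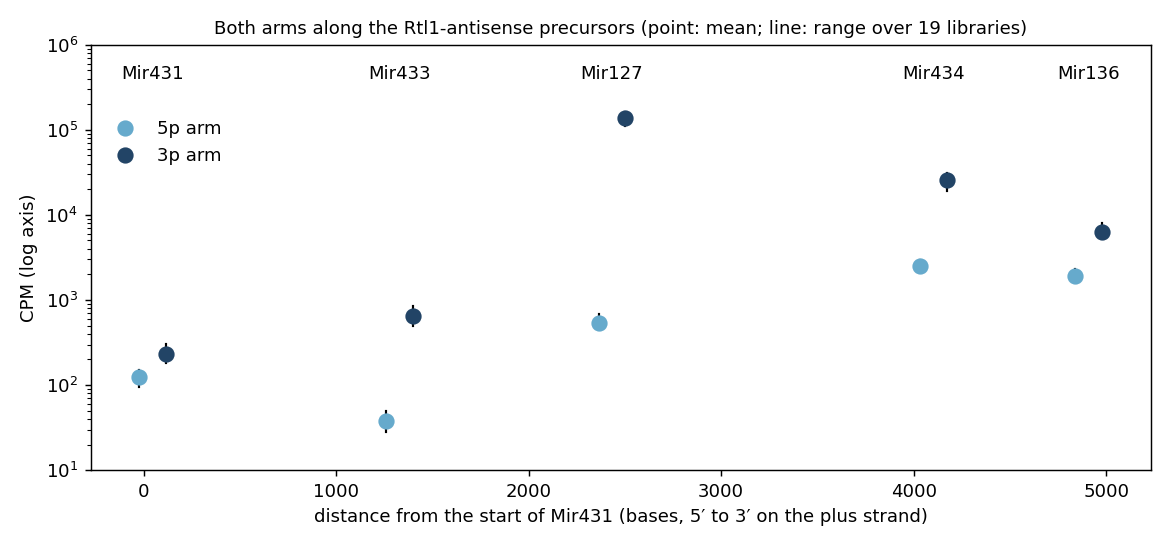
CPM of each arm (log axis) against distance in bases from the start of Mir431 along the plus strand, with the arms of a hairpin drawn side by side around its centre. Points are means over 19 libraries and lines the lowest and highest library. The 3p arm is the higher one in all 5 hairpins, and miR-127-3p at 137926 CPM stands above the rest.

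In all 5 hairpins the 3p arm was the major one in every library. The 3p share of a hairpin's reads was 99.6% ± 0.0536 (SD over 19 libraries) for miR-127, 94.4% ± 1.05 for miR-433, 91.1% ± 1.58 for miR-434, 76.4% ± 1.37 for miR-136 and 65.2% ± 3.11 for miR-431. Over all 152 hairpins with both arms tested, the 5p arm was the minor one in 72. miR-127-3p supplied 78.2% of the reads of the 10 members and miR-434-3p another 14.8%. The position along the antisense transcript did not order the hairpins by level, since miR-127 in the middle was the highest and miR-431 and miR-433 upstream of it were the lowest.

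Whether these miRNAs differ with age was asked by setting aged vehicle against young vehicle. No member was called higher or lower. The log2 fold changes of the 10 ran from -0.14 ± 0.08 (SE) for miR-136-3p to 0.15 ± 0.10 for miR-433-3p, and 6 were negative. By edgeR's quasi-likelihood test with Benjamini-Hochberg adjustment over all 509 miRNAs, the lowest adjusted p among the members was 0.385 (miR-136-3p). None of the 10 had an unadjusted p under 0.05, against 80 of the 509. Over all tested miRNAs 11, or 2.16%, were called in this comparison. The groups overlapped in CPM for all 10 members, while they did not overlap for 3.14% of all tested. The median log2 fold change was -0.04 over the members and -0.003 over all tested. DESeq2 and limma-voom, run as alternatives, called none of the 10 either.

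For miR-127-3p, aged vehicle libraries had 153788, 119740, 142137, 150156 and 149047 CPM, and young vehicle libraries had 136876 at the lowest, a median of 149004 and 162073 at the highest. The aged values lay inside the young range except for replicate 2, which was below every young library. The fold change was -0.06 ± 0.06 on the log2 scale (edgeR adjusted p = 0.699). Replicate 2 also had the lowest value of its group in every other member, of either arm, except miR-434-5p. It had 21134 CPM against 27260 to 31159 in miR-434-3p and 580.4 CPM against 689.3 to 853.0 in miR-433-3p. In miR-434-5p it had 2257 CPM, above the 2199 of replicate 3. The other listed miRNAs of the region also had their lowest share of the group in replicate 2, at 4.26% against 5.01% to 5.19%.

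Whether SAHA changed these miRNAs in aged animals was asked by setting aged SAHA against aged vehicle. miR-127-3p was lower with SAHA, and it was the only 1 of the 10 members to pass the test. The 10 fold changes were of mixed sign, 5 of them negative. Among the 3p arms, miR-433-3p, miR-434-3p and miR-431-3p had negative fold changes beside miR-127-3p, and miR-136-3p had a positive one. Among the 5p arms, miR-433-5p, miR-434-5p, miR-136-5p and miR-127-5p had positive ones, and miR-431-5p had a negative one. None of these but miR-127-3p passed. Over all 509 tested miRNAs 22, or 4.32%, were called in this comparison, 16 lower and 6 higher. Read against that background, 1 call among 10 members is no result about the set as a whole. An unadjusted p under 0.05 was found for 5 of the 10 members and for 99 of the 509, and the median log2 fold change was 0.003 over the members and -0.008 over all tested.

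miR-127-3p in the 6 aged SAHA libraries had 110073 CPM at the lowest, a median of 116602 and 129991 at the highest, against the 5 aged vehicle values given above. All 6 were below the median of aged vehicle, and the overlap between the groups came from aged vehicle replicate 2 alone. The log2 fold change was -0.26 ± 0.07 (edgeR adjusted p = 0.0217). The call rested on several libraries: it was lost without aged vehicle replicate 1, 4 or 5 or aged SAHA replicate 3 or 6, with a highest adjusted p of 0.0793, and also when only the groups compared entered the fit. With single libraries left out, its log2 fold change stayed between -0.32 and -0.23. With both arms of a hairpin summed, miR-127 changed by -0.30 ± 0.07 on the log2 scale (edgeR adjusted p = 0.0111) and none of the other 4 hairpins was called.

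The summed level of the 5 neuronal markers was lower in aged SAHA libraries. It was 69301 to 75230 CPM in aged SAHA, 81612 to 86349 in aged vehicle and 80686 to 90730 in young vehicle libraries. Of the 5, miR-128-3p alone was called, lower with SAHA, with a mean of 25447 CPM against 34553 in aged vehicle. It had the largest difference of the 5. The others were not called: miR-9-5p had 36335 against 39102, miR-124-3p 5516 against 5551, miR-138-5p 2183 against 2666 and miR-218-5p 2620 against 2670. None of the 5 was at 0 in any library. The sums of the oligodendrocyte, immune, endothelial, erythrocyte and choroid plexus markers overlapped between the groups, and none of their members was called. Whether cell composition differed between the groups, and its part in the fall of miR-127-3p, was not tested.

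The arms of miR-433 had fold changes of opposite sign. miR-433-3p had 853.0, 580.4, 734.7, 746.6 and 689.3 CPM in aged vehicle and 490.4 (lowest), 619.6 (median) and 711.0 (highest) in aged SAHA libraries. miR-433-5p had 36.8, 27.8, 39.6, 43.3 and 34.02 CPM in aged vehicle and 38.5 (lowest), 42.5 (median) and 49.2 (highest) in aged SAHA. All 6 SAHA libraries were below the aged vehicle median in the 3p arm and above it in the 5p arm, and the groups overlapped in both. The log2 fold changes were -0.25 ± 0.11 for miR-433-3p (edgeR adjusted p = 0.178) and 0.25 ± 0.12 for miR-433-5p (adjusted p = 0.244).

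miR-434-5p and miR-136-5p had the smallest p-values among the 5p arms. miR-434-5p had 2322, 2257, 2199, 2620 and 2454 CPM in aged vehicle and 2415 (lowest), 2760 (median) and 2985 (highest) in aged SAHA libraries. miR-136-5p had 1712, 1685, 1728, 1986 and 1848 CPM in aged vehicle and 1738 (lowest), 2183 (median) and 2288 (highest) in aged SAHA. For both, all 6 SAHA libraries exceeded the aged vehicle median and the groups overlapped. The log2 fold changes were 0.20 ± 0.07 (edgeR adjusted p = 0.120) and 0.21 ± 0.08 (adjusted p = 0.122). Both passed with limma-voom, and both passed when aged SAHA replicate 1 and young vehicle replicate 6 were left out, where the count of members called rose from 1 to 3. Young vehicle replicate 6 belongs to neither group compared and enters only the shared fit. With single libraries of the compared groups left out, neither passed (lowest edgeR adjusted p = 0.0639 for miR-434-5p and 0.0678 for miR-136-5p). DESeq2 called miR-434-5p beside miR-127-3p.

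The remaining members had fold changes closer to 0. They were 0.06 ± 0.09 on the log2 scale for miR-127-5p, 0.04 ± 0.08 for miR-136-3p, -0.04 ± 0.11 for miR-431-3p, -0.09 ± 0.11 for miR-431-5p and -0.12 ± 0.11 for miR-434-3p. miR-434-3p spread widely with SAHA, from 19038 CPM in replicate 2 to 29604 in replicate 4, on both sides of the aged vehicle median of 28506. None of the 10 members had groups that did not overlap in CPM, against 4.91% of all tested.

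**Figure D2:**
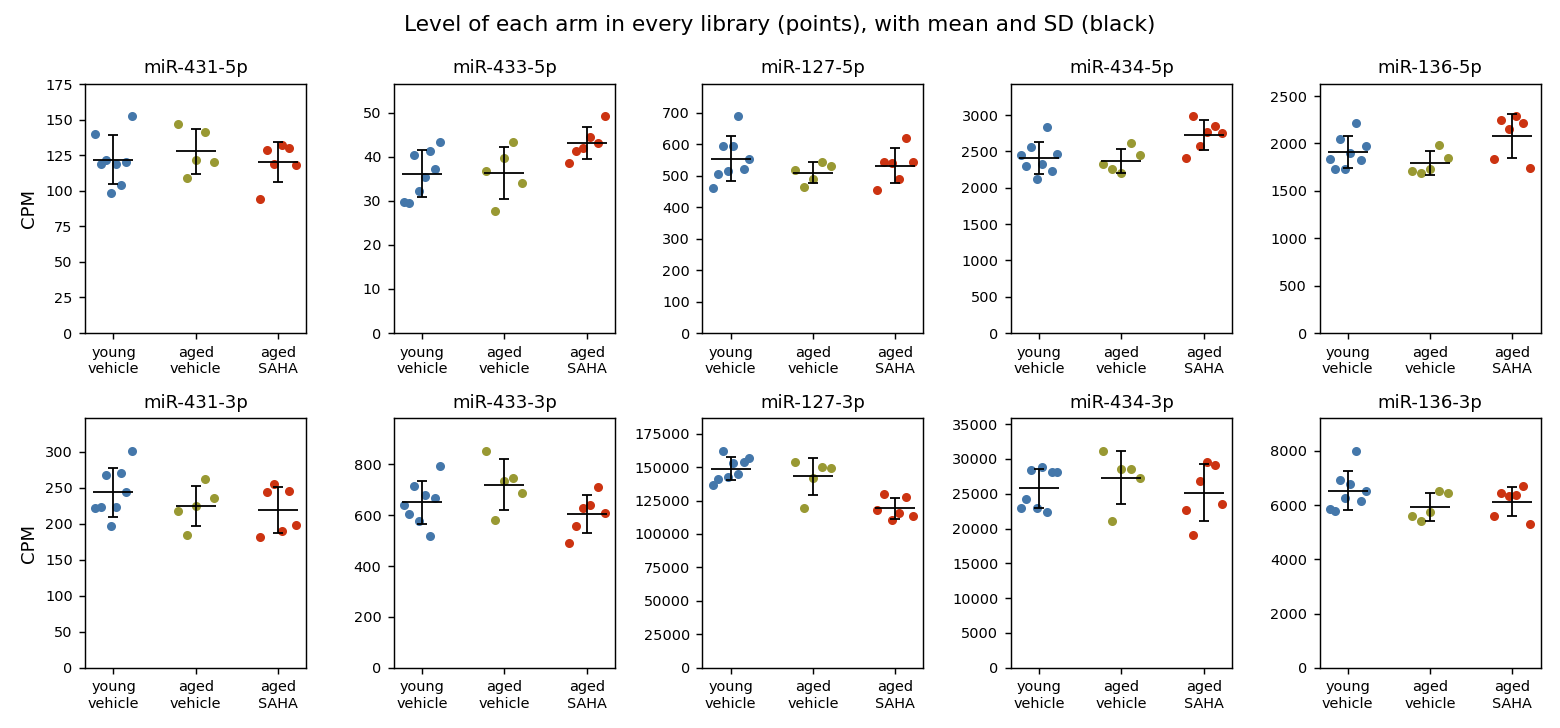
CPM of each arm in every library, 1 panel per miRNA with its own axis from 0, with libraries drawn by group (8 young, 5 aged with vehicle, 6 aged with SAHA). Points are libraries, black lines the mean and its SD. The 6 aged SAHA libraries of miR-127-3p lie between 110073 and 129991 CPM, below all 8 young libraries. They overlap with aged vehicle through its replicate 2. Within each other panel the 3 groups overlap.

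**Figure D3:**
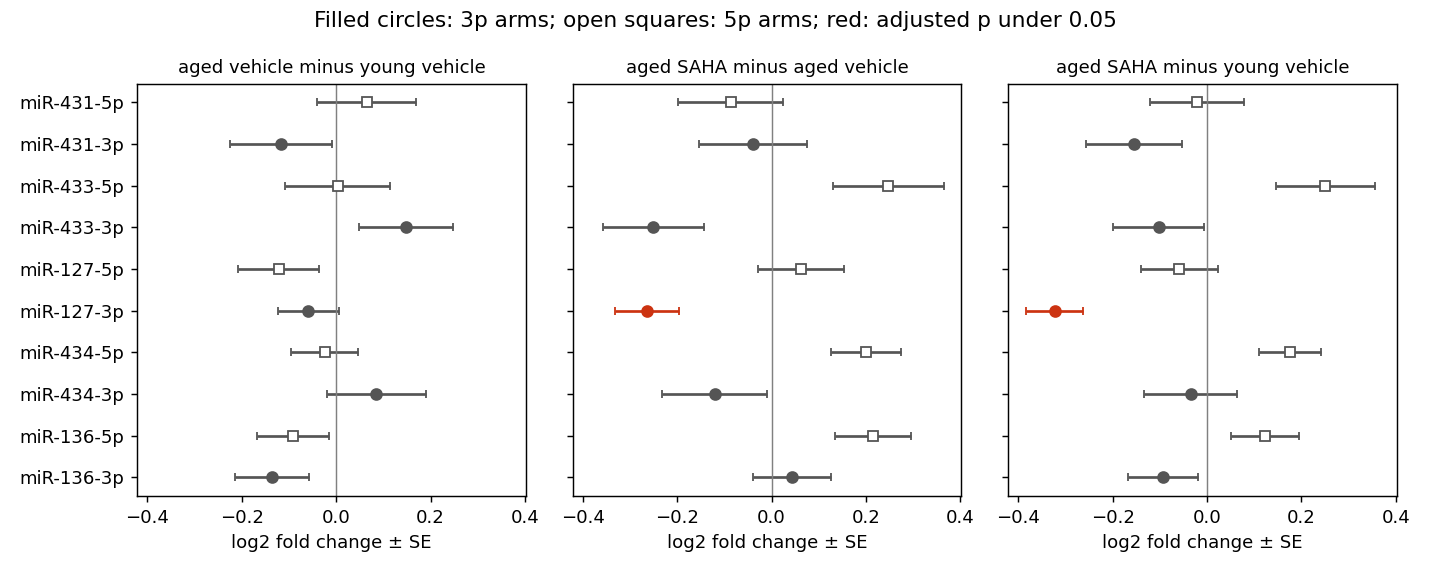
Log2 fold change of the 10 members with its standard error (edgeR) in the 3 comparisons, filled circles for 3p arms and open squares for 5p arms. miR-127-3p, in red, is the member with an adjusted p under 0.05, at -0.26 against aged vehicle and -0.32 against young vehicle.

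Since both arms of a hairpin are counted in the same library, their ratio within it does not depend on how libraries are scaled. The log2 of the 5p count over the 3p count was tested with limma over all 152 hairpins with both arms tested. It is not independent of the levels above, because the same counts enter both. With age, 0 of the 5 hairpins changed by this test, as did 0% of the 152, and 17 of the 152 but none of the 5 had an unadjusted p under 0.05.

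With SAHA, the balance moved toward the 5p arm, which is the minor arm, in miR-433, miR-127 and miR-136. These were 3 of the 5 hairpins, against 21 of 152, or 13.8%, over all. The differences were 0.51 ± 0.12 for miR-433 (limma adjusted p = 0.00472), 0.32 ± 0.08 for miR-127 (adjusted p = 0.0110) and 0.17 ± 0.05 for miR-136 (adjusted p = 0.0367). miR-434 had a difference of similar size to that of miR-127 with a larger error, 0.32 ± 0.13 (adjusted p = 0.103), and miR-431 one of -0.04 ± 0.11 (adjusted p = 0.845). Of their single arms, miR-127-3p alone was called in level, and the 3p log2 fold changes were -0.26 in miR-127, -0.25 in miR-433 and 0.04 in miR-136.

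For miR-433 the log2 ratio was -4.53, -4.38, -4.21, -4.10 and -4.34 in aged vehicle and -4.04 (lowest), -3.80 (median) and -3.63 (highest) in aged SAHA libraries. All 6 SAHA libraries were above all 5 aged vehicle libraries. For miR-136 it was -1.71, -1.68, -1.73, -1.72 and -1.80 in aged vehicle and -1.61 (lowest), -1.58 (median) and -1.48 (highest) in aged SAHA, again without overlap. Over the 152 hairpins the groups did not overlap in 7.24%. For miR-127 it was -8.21, -8.01, -8.18, -8.11 and -8.13 in aged vehicle and -8.02 (lowest), -7.79 (median) and -7.67 (highest) in aged SAHA. Here the groups met at aged SAHA replicate 1, the lowest with SAHA, which fell just under aged vehicle replicate 2. Expressed as shares, the 3p arm went from 95.2% ± 0.519 to 93.3% ± 0.662 of miR-433 reads, from 76.8% ± 0.564 to 74.7% ± 0.708 of miR-136 reads and from 99.64% ± 0.0188 to 99.55% ± 0.0434 of miR-127 reads (n = 5 and 6).

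miR-433 and miR-127 kept their calls without any single library, whereas miR-136 lost its call without aged vehicle replicate 1, 3, 4 or 5 or aged SAHA replicate 2 or 4 (highest limma adjusted p = 0.0899) and when only the groups compared entered the fit. Without aged SAHA replicate 1 and young vehicle replicate 6 the same count, 3 of 5, was called.

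A movement toward the 5p arm with SAHA was found well beyond these hairpins. Of the 21 hairpins called, 20 moved toward 5p, and the median over all 152 was 0.06. In 11 of the 21 calls the 5p or 3p arm gained was the minor one. Among 118 hairpins outside the Dlk1-Dio3 region 15 were called, all toward 5p, with a median of 0.08. Among the other 29 hairpins of the region 3 were called (miR-379, miR-485, miR-673), 2 of them toward 5p, with a median of -0.01. Whether the 5 Rtl1-antisense hairpins differ from the others in this was not tested, and neither was the part of library preparation.

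**Figure D4:**
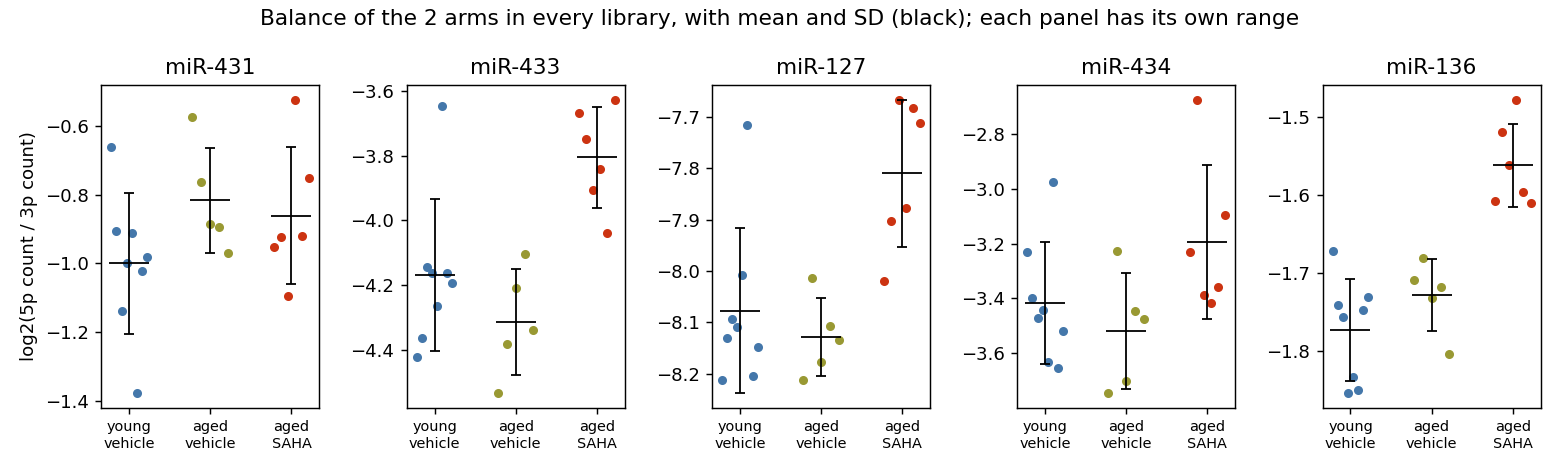
Log2 of the 5p count over the 3p count in every library for the 5 hairpins, each panel with its own range that does not start at 0. Points are libraries, black lines the mean and its SD. In miR-433 and miR-136 all 6 aged SAHA libraries lie above all 5 aged vehicle libraries. Young vehicle replicate 6 stands above the other young libraries in miR-127, miR-433 and miR-434 and below them in miR-431.

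**Figure D5:**
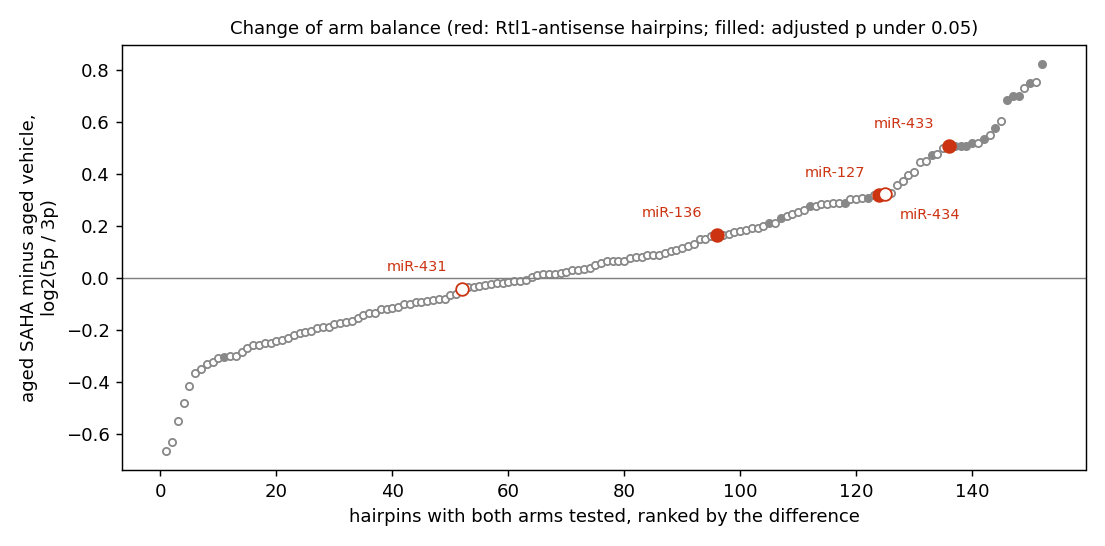
Difference in log2 of 5p over 3p between aged SAHA and aged vehicle for all 152 hairpins, ordered from lowest to highest, with the Rtl1-antisense hairpins in red and those with a limma adjusted p under 0.05 filled. miR-433, miR-127 and miR-136 are filled at 0.51, 0.32 and 0.17, among other hairpins that lie as high or higher.

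Aged SAHA against young vehicle sets the treated animals beside the young ones, and it shares its libraries with the comparisons above, so it adds no independent result. miR-127-3p was again the member called, and lower. Its log2 fold change was -0.32 ± 0.06 (edgeR adjusted p = 0.000810), and all 6 SAHA libraries were below all 8 young libraries. With 1 of 10 members called and 1 of 10 without overlap, the shares over all 509 were 13.9% called and 3.54% without overlap. The next members by p were miR-434-5p at 0.18 ± 0.07 (adjusted p = 0.0813) and miR-433-5p at 0.25 ± 0.10 (adjusted p = 0.0991), with all 6 SAHA libraries above the young median in both. miR-434-5p was called under several alternatives, among them DESeq2 and leaving out young vehicle replicate 6 or aged SAHA replicate 1, which raised the count of members from 1 to 2.

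Against young vehicle the arm balance was called in the same 3 hairpins, and 16 of 152, or 10.5%, were called over all. The differences were 0.36 ± 0.10 for miR-433 (limma adjusted p = 0.0256), 0.27 ± 0.07 for miR-127 (adjusted p = 0.0178) and 0.21 ± 0.05 for miR-136 (adjusted p = 0.00411). In young vehicle libraries the log2 ratio of miR-136 was -1.85 (lowest), -1.75 (median) and -1.67 (highest), below every SAHA library, and groups did not overlap in 2.63% of the 152. In miR-433 and miR-127 young vehicle replicate 6, at -3.65 and -7.72, lay among the SAHA libraries. In miR-127 young vehicle replicate 5, at -8.007, also lay just above aged SAHA replicate 1, at -8.02. The call for miR-127 was lost without aged SAHA replicate 5 (limma adjusted p = 0.0559) and that for miR-433 without young vehicle replicate 1 or 2 or aged SAHA replicate 6 (highest adjusted p = 0.0621). miR-434 and miR-431 had differences of 0.22 ± 0.12 and 0.14 ± 0.10 with adjusted p of 0.203 and 0.396.

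The members varied together across libraries to differing degrees. Pearson's r of log2 CPM, after the mean of each group was subtracted, had a median of 0.48 over the 45 pairs of members, with 44 pairs positive, against a median of -0.001 over all pairs of tested miRNAs. Between the members and the other tested miRNAs of the Dlk1-Dio3 region the median was 0.34, with 610 of 720 pairs positive, so positive correlations were not limited to pairs of members. These are descriptions over 19 libraries that share tissue, preparation and scaling, and no test was made. The arms of miR-136 were the closest pair at 0.91, followed by miR-433-3p with miR-434-3p at 0.82 and miR-431-5p with miR-433-3p at 0.81. The arms of miR-434 were the least alike at -0.05. The median over the 5 same-hairpin pairs was 0.50 against 0.48 for the 40 pairs from different hairpins. miR-127-3p correlated with the other 9 members at 0.36 to 0.57.

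The 5 miRNAs outside the set whose pattern over the 19 libraries was most like that of miR-127-3p, by the same measure, were miR-329-5p (r = 0.69), miR-488-5p (0.66), miR-154-5p (0.65), miR-380-5p (0.64) and miR-421-3p (0.63). Of these, miR-329, miR-154 and miR-380 lie in the Dlk1-Dio3 region on the Mirg side. With the group means kept in, which lets the SAHA difference enter, the list became miR-1983 (0.89), miR-673-5p (0.80), miR-128-3p (0.79), miR-667-3p (0.78) and miR-409-5p (0.75).

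Elsewhere in the Dlk1-Dio3 region, maternal miRNAs lie upstream of Rtl1 and downstream of it on the Mirg side. With age, none of the 58 tested on the Mirg side, the 10 upstream and the 4 between was called. With SAHA, 6 of the 58 on the Mirg side, or 10.3%, were called, all lower, 1 of the 10 upstream, lower, and none of the 4 between, where 4.32% of all tested miRNAs were called. miR-379-3p changed by -0.53 ± 0.11 on the log2 scale (edgeR adjusted p = 0.00420), miR-485-3p by -0.50 ± 0.10 (adjusted p = 0.00439) and upstream miR-673-5p by -0.37 ± 0.08 (adjusted p = 0.00937). Their levels, 101 to 375.3 CPM as group means, were far below that of miR-127-3p. The median log2 fold change with SAHA was 0.02 on the Mirg side and 0.04 upstream. miR-3070, the other neighbour of these hairpins, had at most 6 counts in a library and was not tested.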

How the data were processed

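Small RNA was sequenced from mouse CA1 in 19 libraries (8 young vehicle, 5 aged vehicle, 6 aged SAHA), with RNA extracted by Tri reagent and libraries made with TruSeq, per the labels' protocols. The authors deposited raw counts, with each mature miRNA given as a whole number in every library. Build mm10 and the tools STAR, HTSeq, cutadapt and CASAVA 1.8.2 are named, per the submitters' processing notes, while their settings and the miRNA annotation are not given in the sources used here. The 4 summary lines of each file were all 0 and were left out, so the share of unassigned reads is unknown.

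The edgeR filter filterByExpr, with a minimum count of 10 and a minimum total of 15, passed 509 miRNAs and removed 639. After TMM scaling a model was fitted in edgeR 4.0.16 under R 4.3.3 (robust quasi-likelihood F test, 1 term per group, all 19 libraries in the fit). miRNAs were called where the p adjusted by Benjamini-Hochberg over all 509 was under 0.05, and the standard error is the log2 fold change divided by the square root of F. The common biological coefficient of variation was 0.152. CPM are from edgeR after TMM. Arm balance, log2 of (5p + 0.5) over (3p + 0.5) counts, was fitted with limma 3.58.1 (trend, robust) over 152 hairpins. Both fits were also run on simulated counts. For arm balance, the planted changes were larger than those of the members, and the arms of a hairpin were drawn independently. That simulation therefore does not show how well changes of the members' size are found. DESeq2 1.42.0, limma-voom, other scalings and filters, summed arms, left-out libraries and a replicate block were alternatives. Libraries of a group correlated at 0.987 to 0.996 (log2 CPM), and none was counted as a copy of another.

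The text names all 10 members, the 5 miRNAs most correlated with miR-127-3p, and up to 4 called miRNAs per list of the region. Members and lists were chosen with earlier results of these data known.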

Additional observations from a re-analysis of the deposited data

Results flagged for a closer look

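In young vehicle replicate 6 the log2 ratio of 5p to 3p counts stood apart from the other 7 young libraries in miR-127 and miR-433. For miR-127 it was -7.715, against -8.213 to -8.007 in the others, a gap of 0.588 of the whole range. For miR-433 it was -3.646, against -4.421 to -4.143, a gap of 0.641 of the range. Levels and arm ratios of the members were checked for such gaps in 45 groups of libraries, of which these 2 were marked, and chance marks about 1 group in 20. Without being marked, young vehicle replicate 6 was also the highest young library in miR-434, at -2.974 against -3.23 for the next. In miR-431 it was the lowest, at -1.378 against -1.138 for the next, also unmarked.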

How the results depend on the processing

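Of 960 recomputed values for single members and hairpins, 894 kept their direction and their side of the threshold, 19 lost a call, 14 gained 1 and 33 changed sign, all 33 uncalled both before and after. The members called with SAHA (1) became 2 with DESeq2, 3 with limma-voom, 3 without aged SAHA replicate 1 and young vehicle replicate 6, 0 with the replicate block and 0 with only the groups compared. Against young vehicle (1) they became 2 with DESeq2 size factors, library size only, a CPM of 10 in 5 libraries, DESeq2, limma-voom, the replicate block and without those libraries. The cause was not tested. Over all miRNAs, the calls with age (11) became 20 with DESeq2, 23 with limma-voom, 18 without those libraries and 19 with only the groups compared, and with SAHA (22) they became 39, 46, 37 without those libraries and 10 with arms summed, where fewer features were tested. The replicate block ended the SAHA calls of miR-127-3p (-0.25, edgeR adjusted p = 0.0696) and of the miR-136 arm balance (0.18, limma adjusted p = 0.0548), and the member it added against young vehicle was miR-433-5p (0.31, edgeR adjusted p = 0.0446), not miR-434-5p. Same-numbered libraries of different groups correlated over 0.1 in 4 of 16 pairs (-0.317 to 0.314). Whether the numbers in the labels pair the libraries was not tested.

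Leaving out 1 library at a time gave 0 to 1 members called with SAHA and 1 to 2 against young vehicle, 2 to 3 hairpins in arm balance in both, and over all miRNAs 8 to 14 calls with age, 11 to 33 with SAHA and 57 to 81 against young vehicle.

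Signs that changed belonged to values near 0 (log2). With age, miR-434-5p became 0.010 with library size only and 0.013 without those libraries, and the miR-127 arm balance 5.4e-05 without them. With SAHA, miR-431-3p became 0.00872 without them. Against young vehicle, miR-431-5p became 0.019 with library size only, 0.028 with limma-voom, 0.00918 without those libraries, 0.041 with the replicate block and 0.00844 with only the groups compared, miR-434-3p 0.013 with library size only, and miR-127-5p 0.00881 with limma-voom and 0.033 without those libraries. Without single libraries the ranges were -0.045 to 0.10 (miR-433-5p), -0.049 to 0.013 (miR-434-5p), -0.079 to 0.013 (miR-127-3p) and -0.081 to 5.4e-05 (miR-127 arm balance) with age, -0.097 to 0.021 (miR-431-3p) and -0.11 to 0.017 (miR-431 arm balance) with SAHA, and -0.060 to 0.040 (miR-431-5p) and -0.069 to 0.033 (miR-434-3p) against young vehicle. miR-433-5p, at 109 to 247 counts per library, is the member with the fewest counts, so counting error weighs most on it. Its SD within groups, 13.1% of its mean, was still no larger than the 13.9% of the far deeper miR-434-3p.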
